A study of Mus musculus with 6 samples.

Results

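Apoptotic cells and modified lipoproteins are taken up through a small set of receptors and soluble bridging proteins, and 9 genes of that kind are described here: Axl, Mertk, Tyro3, Gas6, Mfge8, Trem2, Cd36, Msr1 and Marco. They were chosen by name, through the gene symbol that the platform annotation gives each set of probes. All 9 were found, with 19 probe sets that carry their symbol alone, out of 34945 single-symbol probe sets and 18193 genes on 6 Affymetrix arrays. Each gene is represented by its probe set with the highest mean, called the main probe set below, and the other probe sets are set beside it.

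RNA came from cultured cells of C57BL/6 mice. GM-TNFa-DC are dendritic cells, which present antigen to T cells, grown out of GM-MPP under GM-CSF together with TNFa, an inflammatory cytokine. GM-DC were grown out of GM-MPP under GM-CSF alone. GM-MPP are multipotent progenitors of the bone marrow, kept in stem cell cytokines that the labels do not name, also with GM-CSF, so that all 3 groups were exposed to this growth factor. Each group has 2 arrays, numbered 1 and 2 in the labels, which do not say whether the numbers stand for separate cultures or animals. The p-values therefore measure the spread between these arrays, which may be technical, and with 2 arrays a group it is poorly known. The sources used here give no doses, times or animal ages.

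As background, a dying cell exposes phosphatidylserine on its surface, and phagocytes recognise it directly or through a bridge. Gas6 bridges phosphatidylserine to the receptor tyrosine kinases Tyro3, Axl and Mertk, and protein S bridges it to Tyro3 and Mertk. These kinases also dampen inflammatory signalling in dendritic cells and macrophages. Mfge8 is a bridge to integrins, Trem2 binds lipids and signals through the adaptor Tyrobp, and Cd36, Msr1 and Marco are scavenger receptors. Cd36 takes up fatty acids and oxidised lipoproteins, Msr1 modified lipoproteins, and Marco bacteria and particles. In dendritic cells such uptake feeds antigen into presentation.

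Values are log2 expression levels, on which array medians lay between 4.66 and 4.76, so a level at or under the median is close to background and a fold against it is not exact. Levels of different genes are not compared, since each probe set has its own brightness. The dendritic cell label was checked on 10 marker genes: the log2 of their summed linear level was 15.91 and 14.06 in GM-TNFa-DC 1 and 2 and 15.55 and 13.75 in GM-DC 1 and 2, against 9.15 and 9.25 in GM-MPP. Of the 10, Ciita was under the array median on both number-2 dendritic cell arrays and Zbtb46 on GM-DC 2. For 8 progenitor markers the same sum was 9.43 and 8.33 in GM-TNFa-DC and 9.69 and 8.34 in GM-DC, against 12.00 and 12.37 in GM-MPP. All 8 were over the median on both GM-MPP arrays. In GM-TNFa-DC 1 and 2 it was 4 and 5 of them, and in GM-DC 5 on both arrays. Of the 8, Kit was higher than in GM-MPP (7.09 and 7.22) on the number-1 arrays, at 8.66 in GM-TNFa-DC and 8.997 in GM-DC. On the number-2 arrays Kit was lower than in GM-MPP, at 5.43 and 5.65. Controls added before labelling were dimmer on the number-2 array in 24 of 24 probe sets of every group, by a median log2 difference of -1.37 in GM-TNFa-DC, -1.09 in GM-DC and -1.28 in GM-MPP, whereas controls added at hybridisation differed by 0.20, -0.09 and -0.02. In bulk RNA of this kind, fewer cells of a type and less RNA per cell cannot be told apart.

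The 4 genes that passed the test in both kinds of dendritic cell, Axl, Mfge8, Cd36 and Marco, are shown by their promoters, 250 bases before to 50 bases after the gene start, from RefSeq on build GRCm38.p6. The table held promoters for 8 of the 9 genes, without Msr1. All 4 are on the minus strand, and the windows are chr7:25788684-25788983 for Axl, chr7:79149011-79149310 for Mfge8, chr5:17835847-17836146 for Cd36 and chr1:120504975-120505274 for Marco. Capitals mark a match to GAGGAA, the core that PU.1 and other ETS factors bind, on either strand.
Axl: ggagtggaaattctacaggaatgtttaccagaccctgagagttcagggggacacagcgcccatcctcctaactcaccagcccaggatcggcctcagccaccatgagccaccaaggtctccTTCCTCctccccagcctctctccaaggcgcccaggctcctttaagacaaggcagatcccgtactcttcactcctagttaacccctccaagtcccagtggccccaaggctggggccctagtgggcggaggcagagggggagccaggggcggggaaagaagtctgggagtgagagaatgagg
Mfge8: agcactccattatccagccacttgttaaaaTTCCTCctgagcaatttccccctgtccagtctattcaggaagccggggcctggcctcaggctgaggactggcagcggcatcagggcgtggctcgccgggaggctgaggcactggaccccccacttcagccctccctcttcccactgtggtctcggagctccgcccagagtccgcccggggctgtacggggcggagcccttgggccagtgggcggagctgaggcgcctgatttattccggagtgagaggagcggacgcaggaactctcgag
Cd36: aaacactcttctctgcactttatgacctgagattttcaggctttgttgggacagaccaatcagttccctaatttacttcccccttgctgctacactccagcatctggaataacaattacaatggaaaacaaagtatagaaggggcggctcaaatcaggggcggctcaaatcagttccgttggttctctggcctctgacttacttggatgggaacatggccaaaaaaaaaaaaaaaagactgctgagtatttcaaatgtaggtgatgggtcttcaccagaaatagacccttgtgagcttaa
Marco: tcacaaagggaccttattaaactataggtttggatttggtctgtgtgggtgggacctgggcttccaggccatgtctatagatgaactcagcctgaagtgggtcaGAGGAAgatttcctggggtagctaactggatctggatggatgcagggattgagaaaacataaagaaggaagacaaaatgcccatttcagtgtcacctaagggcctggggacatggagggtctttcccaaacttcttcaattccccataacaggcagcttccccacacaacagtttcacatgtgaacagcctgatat
The match begins at -130 from the start in Axl, -220 in Mfge8 and -146 in Marco, and the Cd36 window holds none. Trem2 also has one, at -40, which makes 4 of 8 promoters, while 28.3% of all 32851 promoters of this length hold it. The AP-1 motif TGANTCA occurred in Trem2 alone (7.81% of all promoters). The E-box CACGTG (7.15%) and the motifs named for IRF (3.44%), PPAR with RXR (0.0396%) and NF-kB (0.411%) occurred in none of the 8. The motifs do not overlap in these windows, and a match is a run of letters, not a binding site.

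GM-DC were set against GM-MPP to see how dendritic cells differ from the progenitors that gave rise to them. Axl, Mfge8, Cd36 and Marco rose, and no member fell (limma, Benjamini-Hochberg adjusted p under 0.05 over 18193 genes). Msr1, Trem2 and Mertk had higher means that did not pass, while Tyro3 and Gas6 had the smallest changes, which did not pass either. Of all genes tested, 1.87% were called higher and 2.63% lower. The 9 members had a median log2 change of 3.09, against 0.02 over all genes. In 8 of 9 members, Gas6 apart, both GM-DC arrays lay above both GM-MPP arrays, as they did for 28.3% of all genes.

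**Figure D1:**
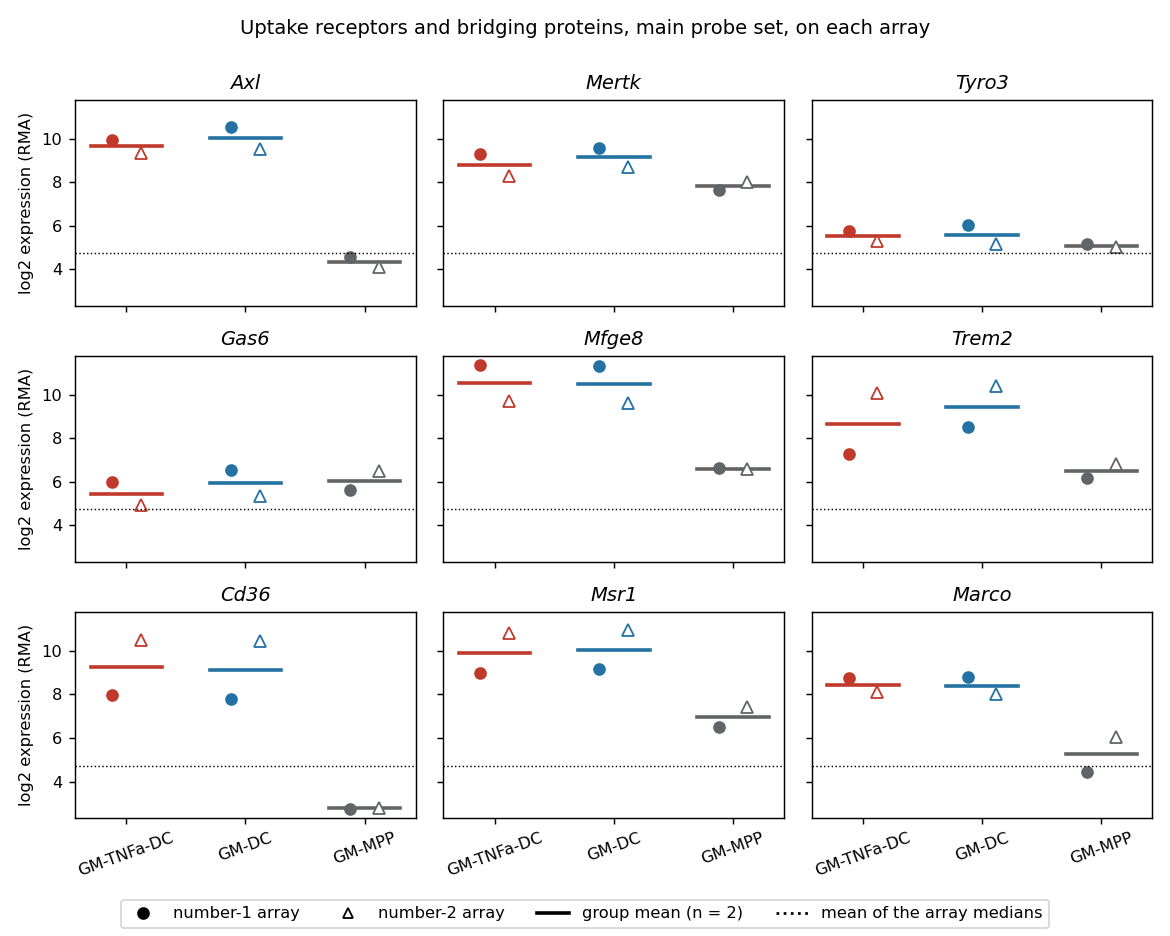
Log2 expression of the main probe set of each gene on the y axis, by group on the x axis; circles are number-1 arrays, triangles number-2 arrays, bars the mean of 2 arrays and the dotted line the mean of the array medians. In 8 of 9 members, Gas6 apart, all 4 dendritic cell arrays lay above both GM-MPP arrays. Of all genes, 28.3% lay above GM-MPP in this way in GM-DC and 31.6% in GM-TNFa-DC. Trem2, Cd36 and Msr1 were higher on the number-2 than on the number-1 dendritic cell arrays, and the other members were lower.

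Among the receptor kinases, Axl was at 9.94 and 9.33 in GM-TNFa-DC 1 and 2 and at 10.51 and 9.51 in GM-DC 1 and 2, against 4.54 and 4.09 in GM-MPP 1 and 2. The GM-MPP values lay under the array median, so Axl was near background in progenitors and bright in all 4 dendritic cell samples. Its log2 change in GM-DC was 5.69 ± 0.42 (moderated standard error, 2 arrays a group) against this near-background level, with an adjusted p of 0.00519 (limma), and it was 5.97 on number 1 and 5.41 on number 2. Without GM-MPP 1 the adjusted p was 0.0519 and without GM-MPP 2 it was 0.0665, while either GM-DC array alone kept it past the threshold.

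Mertk, a receptor kinase best known from macrophages and the retina, was at 9.31 and 8.28 in GM-TNFa-DC and at 9.57 and 8.70 in GM-DC, against 7.64 and 8.01 in GM-MPP. Unlike Axl it was well over the median in the progenitors already. The log2 change in GM-DC was 1.30 ± 0.45 and did not pass (adjusted p = 0.179, limma), at 1.92 on number 1 and 0.69 on number 2. Tyro3, the third of these kinases, was at 5.75 and 5.27 in GM-TNFa-DC and 6.02 and 5.16 in GM-DC, against 5.14 and 5.00 in GM-MPP, not far above the array medians. Its change of 0.52 ± 0.33 did not pass (adjusted p = 0.429, limma), at 0.89 on number 1 and 0.16 on number 2.

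Of the bridging proteins, Mfge8 was at 11.35 and 9.71 in GM-TNFa-DC and 11.31 and 9.64 in GM-DC, against 6.63 and 6.59 in GM-MPP. The groups did not overlap, and the progenitor arrays were within 0.04 of each other. Mfge8 rose by 3.87 ± 0.72 in GM-DC, or 14.6-fold (adjusted p = 0.0476, limma), with 4.68 on number 1 and 3.05 on number 2. Gas6, the ligand of all 3 receptor kinases, was at 5.97 and 4.95 in GM-TNFa-DC and 6.57 and 5.36 in GM-DC, against 5.64 and 6.48 in GM-MPP. These ranges overlap, and the change of -0.10 ± 0.55 did not pass (adjusted p = 0.944, limma; 95% interval -1.47 to 1.28). It was 0.93 on number 1 and -1.12 on number 2.

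Trem2 was at 7.26 and 10.10 in GM-TNFa-DC and 8.52 and 10.39 in GM-DC, against 6.16 and 6.82 in GM-MPP. Every dendritic cell array was above the progenitors, but the number-1 and number-2 arrays stood far apart. The change in GM-DC of 2.97 ± 1.05 did not pass (adjusted p = 0.185, limma), with 2.37 on number 1 and 3.57 on number 2. Its adaptor Tyrobp, which serves many myeloid receptors, was bright everywhere, at 12.38 to 12.76 in GM-TNFa-DC and 12.71 to 12.80 in GM-DC against 12.43 to 12.70 in GM-MPP, with a change of 0.19 ± 0.19 (adjusted p = 0.621, limma).

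Among the scavenger receptors, Cd36 was at 7.98 and 10.50 in GM-TNFa-DC and 7.79 and 10.44 in GM-DC, against 2.76 and 2.80 in GM-MPP. The GM-MPP values stood at percentiles 10.1 and 10.5 of those arrays, among the dimmest probe sets. Cd36 rose by 6.34 ± 1.10 in GM-DC (adjusted p = 0.0408, limma), on a GM-MPP level that is near background and so does not fix a fold. The rise was 5.04 on number 1 and 7.64 on number 2.

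Msr1 was at 8.99 and 10.84 in GM-TNFa-DC and 9.16 and 10.94 in GM-DC, against 6.48 and 7.43 in GM-MPP. The groups did not overlap, but the change of 3.09 ± 0.83 did not pass (adjusted p = 0.108, limma), at 2.68 on number 1 and 3.51 on number 2. Marco was at 8.76 and 8.13 in GM-TNFa-DC and 8.81 and 8.0 in GM-DC, against 4.46 and 6.05 in GM-MPP, where the arrays differed more than in either dendritic cell group. Marco rose by 3.16 ± 0.59 (adjusted p = 0.0490, limma), at 4.36 on number 1 and 1.95 on number 2. Its GM-MPP 1 value lay under the array median, so the number-1 change is against a near-background level. The calls of Mfge8, Cd36 and Marco lay close to the threshold: none of them passed when GM-DC 1 was left out (adjusted p = 0.155, 0.0681 and 0.192), nor without GM-DC 2 (0.0684, 0.113 and 0.113), GM-MPP 1 (0.269, 0.248 and 0.189) or GM-MPP 2 (0.207, 0.191 and 0.0877). Marco was also lost without GM-TNFa-DC 1 (0.0639) or GM-TNFa-DC 2 (0.0641), which enter through the shared spread. Under a robust prior only Axl stayed past the threshold, with adjusted p = 0.0590, 0.0550 and 0.0538 for Mfge8, Cd36 and Marco.

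Markers of other cell types were read on the same arrays. The log2 of the summed linear level of 14 macrophage and monocyte markers was 14.66 and 15.34 in GM-TNFa-DC and 15.01 and 15.20 in GM-DC, against 13.30 and 14.22 in GM-MPP. Of the 14, between 10 and 11 were over the median on the dendritic cell arrays and 13 on the GM-MPP arrays. In GM-DC, Cd68 rose by 1.94 ± 0.18 (adjusted p = 0.00968, limma) and the other 13 did not pass. The median change of the 14 was 0.93. Among those that did not pass, C1qa, C1qb and C1qc had lower means, at -3.13 ± 0.90, -2.47 ± 0.66 and -2.46 ± 0.74. Vsig4, a marker of resident macrophages, was under the median on all 6 arrays, at 3.70 to 3.81, and Cd163 was under it on the 4 dendritic cell arrays, at 3.17 to 3.87. Others were bright on those 4 arrays, with Lyz2 at 13.67 to 13.86, Csf1r at 12.36 to 12.95 and Adgre1 at 9.83 to 11.30. In GM-MPP 1 and 2, Lyz2 was at 12.38 and 13.34, Csf1r at 8.98 and 11.38 and Adgre1 at 9.95 and 9.32. For 9 neutrophil markers the sum was 12.22 and 11.78 in GM-TNFa-DC and 13.76 and 11.85 in GM-DC, against 16.26 and 16.48 in GM-MPP. The part of other cells in the changes above was not tested.

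**Figure D2:**
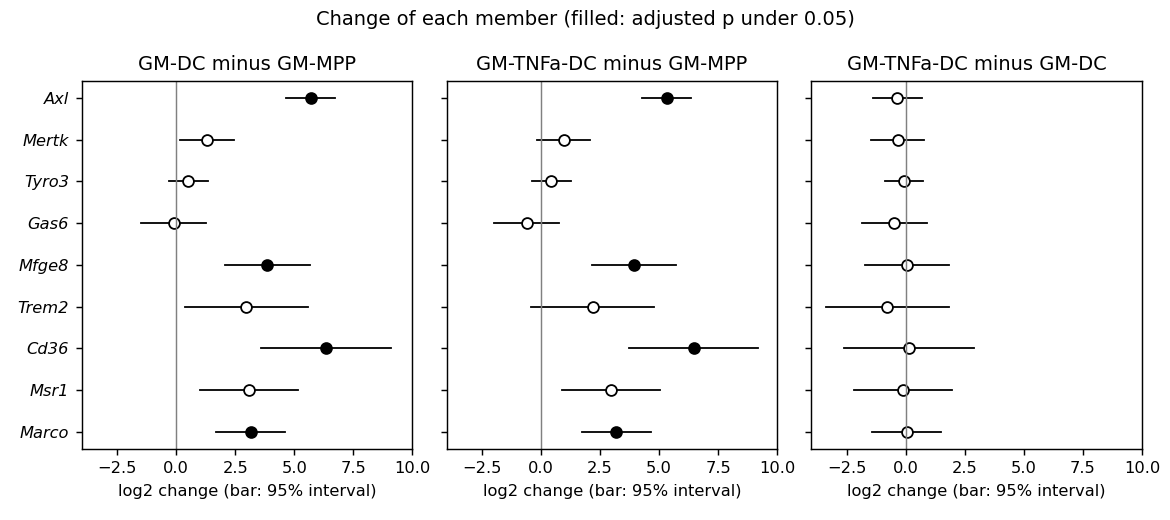
Log2 change of each gene with its 95% interval on the x axis, in 3 panels for GM-DC minus GM-MPP, GM-TNFa-DC minus GM-MPP and GM-TNFa-DC minus GM-DC; filled points passed at an adjusted p under 0.05. Axl, Mfge8, Cd36 and Marco are filled in both comparisons with GM-MPP, and no gene is filled for GM-TNFa-DC minus GM-DC.

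The probe sets of a gene did not always move together. All 4 probe sets of Msr1 had a change in GM-DC between 2.80 and 3.38, and both of Marco were at 3.16 and 2.86, the second of which passed among all probe sets (adjusted p = 0.0215, limma) where the main one did not (0.0543). The 3 probe sets of Cd36 gave 6.34, 4.49 and 1.61, with only the first past the threshold (adjusted p = 0.0445, 0.130 and 0.520, limma). The second Axl probe set lay between 2.39 and 2.84 on all 6 arrays, near the dimmest values of an array, and its change was 0.22 ± 0.15. The second Trem2 probe set was at 4.87 to 5.23 throughout, with a change of -0.11 ± 0.17. The Axl call thus rests on 1 probe set, the 2 probe sets of Trem2 disagree and neither passed, and Mertk and Mfge8 have only 1. Tyro3 gave 1.74 ± 0.95 on its second probe set, which was at 5.59 and 3.43 in GM-TNFa-DC and 6.08 and 3.67 in GM-DC, against 3.02 and 3.25 in GM-MPP, and did not pass (adjusted p = 0.405, limma).

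**Figure D3:**
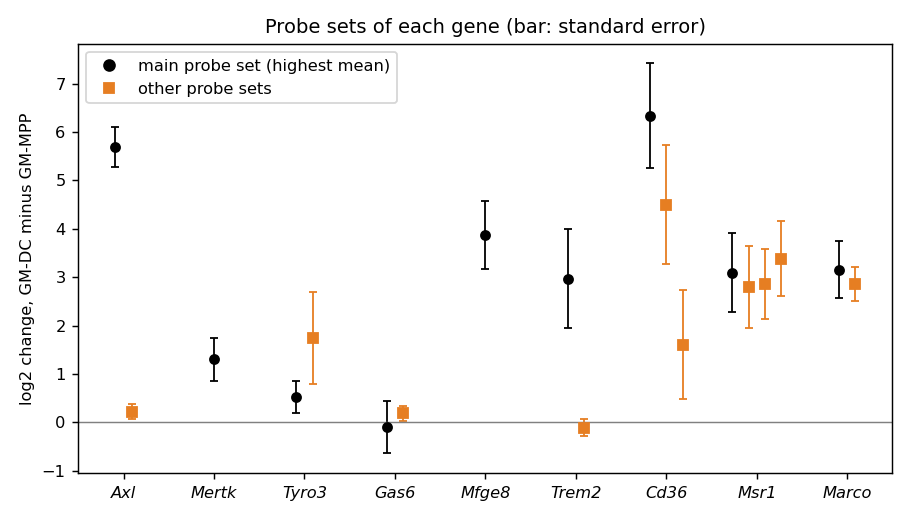
Log2 change from each probe set of each gene on the y axis, GM-DC minus GM-MPP, with its standard error; circles are the main probe sets and squares the others. The 4 probe sets of Msr1 lie between 2.80 and 3.38, whereas the second probe sets of Axl (0.22) and Trem2 (-0.11) stay near 0.

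GM-TNFa-DC were set against the GM-MPP arrays used above, so the 2 comparisons share them. In GM-TNFa-DC 4 of the 9 members rose, against 2.77% of all genes called higher and 4.26% lower: Axl by 5.32 ± 0.42, Mfge8 by 3.93 ± 0.72, Cd36 by 6.46 ± 1.10 and Marco by 3.19 ± 0.59, with adjusted p of 0.00539, 0.0383, 0.0321 and 0.0396 (limma). On number 1 and number 2 the change was 5.41 and 5.24 in Axl, 4.73 and 3.13 in Mfge8, 5.22 and 7.70 in Cd36 and 4.30 and 2.08 in Marco. Both GM-TNFa-DC arrays lay above both GM-MPP arrays in 8 of 9 members, Gas6 again apart, as in 31.6% of all genes. Msr1 differed by 2.96 ± 0.83 (adjusted p = 0.0999), Trem2 by 2.19 ± 1.05 (adjusted p = 0.263) and Mertk by 0.96 ± 0.45 (adjusted p = 0.257), and none of these passed in limma. The values for Tyro3 and Gas6 were 0.44 ± 0.33 and -0.60 ± 0.55. No member was called without GM-MPP 1 or without GM-MPP 2, where Axl had adjusted p = 0.0517 and 0.0623. Without GM-TNFa-DC 1 only Axl was called, and without GM-TNFa-DC 2 only Axl and Mfge8, and Marco was lost as well without GM-DC 1 (adjusted p = 0.0579, limma) or GM-DC 2 (0.058).

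Setting GM-TNFa-DC against GM-DC asks what TNFa adds to GM-CSF. None of the 9 members passed, in either direction, and neither did any other gene (limma, lowest adjusted p = 1 over 18193 genes). At an unadjusted p under 0.05 there were 410 genes, or 2.25%, and none was a member, in a fit that counts the difference between array numbers as spread. The groups overlapped in all 9 members, while 14.9% of all genes were higher and 10.6% lower without overlap. The median change of the members was -0.14, against 0.01 over all genes. The largest difference was in Trem2, at -0.78 ± 1.05 with a 95% interval of -3.39 to 1.83, and it was -1.27 on number 1 and -0.29 on number 2. The second Trem2 probe set differed the other way, at 0.22 ± 0.17, and did not pass. Gas6 was at -0.50 ± 0.55, Axl at -0.37 ± 0.42 and Mertk at -0.34 ± 0.45, each lower in GM-TNFa-DC on both numbers. Mfge8 (0.06 ± 0.72), Cd36 (0.12 ± 1.10), Msr1 (-0.14 ± 0.83) and Marco (0.03 ± 0.59) differed by 0.19 or less in size on either number. Tyro3, at -0.08 ± 0.33, was -0.28 on number 1 and 0.12 on number 2. The 95% intervals of this fit hold the number difference too: that of Cd36 runs from -2.62 to 2.86, that of Axl runs from -1.41 to 0.67, that of Mfge8 from -1.73 to 1.85, that of Msr1 from -2.21 to 1.93 and that of Marco from -1.44 to 1.51.

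Among the dendritic cell arrays the difference by array number was, in all 9 members, larger in size than that by TNFa, a ranking with no test of its own, and the members moved in opposite directions. Over the 4 dendritic cell arrays, with the group as a term, Trem2, Cd36 and Msr1 were higher on number 2, and Axl, Mertk, Gas6, Mfge8 and Marco were lower (limma, adjusted p under 0.05). Of all genes, 6.41% were called higher and 5.41% lower. All 9 members had no overlap between the numbers, 3 higher and 6 lower, as did 29.8% of all genes higher and 25.6% lower. The labels do not say what the numbers mark. The p-values of this fit, here and below, rest on how alike the GM-TNFa-DC and GM-DC arrays of a number are. They do not measure the spread between repeats of a number.

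Cd36 was at 10.50 and 10.44 on the number-2 arrays of GM-TNFa-DC and GM-DC, against 7.98 and 7.79 on the number-1 arrays, a log2 difference of 2.59 ± 0.13 (adjusted p = 0.00200, limma). Its other probe sets differed by 2.96 ± 0.14 and 2.71 ± 0.16. Trem2 differed by 2.36 ± 0.25 (adjusted p = 0.00877) and Msr1 by 1.81 ± 0.12 (adjusted p = 0.00332), and all 4 probe sets of Msr1 were called, at 1.23 to 1.91. The second Trem2 probe set differed by -0.14 ± 0.16 and did not pass (adjusted p = 0.695, limma), so the Trem2 call rests on its main probe set. In GM-MPP the number-2 array was also the higher one in Trem2, by 0.67 on the main probe set, and in Msr1, by 0.95. Cd36 differed there by only 0.04 at a near-background level, which gives no direction.

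Mfge8 was at 9.71 and 9.64 on the number-2 arrays of GM-TNFa-DC and GM-DC, against 11.35 and 11.31 on the number-1 arrays, a difference of -1.65 ± 0.12 (adjusted p = 0.00360, limma). The difference was -1.11 ± 0.15 for Gas6 (adjusted p = 0.0158), -0.95 ± 0.13 for Mertk (adjusted p = 0.0169), -0.81 ± 0.15 for Axl (adjusted p = 0.0342) and -0.72 ± 0.14 for Marco (adjusted p = 0.0370). Tyro3, at -0.67 ± 0.17, did not pass on its main probe set (adjusted p = 0.0734), while its second probe set differed by -2.28 ± 0.17 (adjusted p = 0.00488, limma). The second probe sets of Gas6 (0.06 ± 0.16), Axl (0.17 ± 0.16) and Marco (-0.46 ± 0.17) did not pass (adjusted p = 0.879, 0.602 and 0.211, limma). Among all probe sets the main one of Marco did not pass either (adjusted p = 0.0547, limma). The GM-MPP pair did not show the same pattern. Number 2 minus number 1 was -0.45 in Axl, -0.14 in Tyro3 and almost nil in Mfge8 (-0.04), but 0.84 in Gas6, 0.37 in Mertk and 1.59 in Marco. The sign was thus that of the dendritic cells in 3 of these 6, with Mfge8 counted. With the GM-MPP arrays in the fit none of the 9 members passed, nor did any other gene. The fit on 4 arrays has 1 residual degree of freedom, and its spread comes only from how alike the GM-TNFa-DC and GM-DC arrays of a number are.

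**Figure D4:**
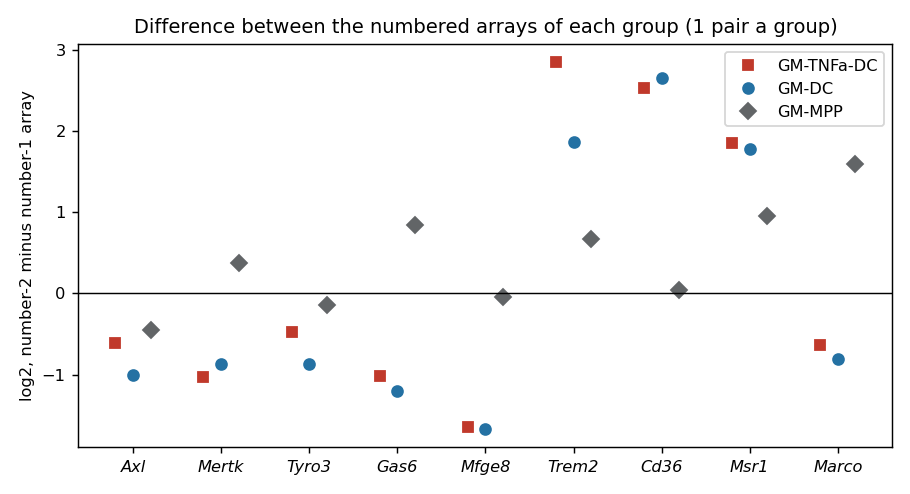
Number-2 minus number-1 array on the log2 scale on the y axis for each gene on the x axis; squares are GM-TNFa-DC, circles GM-DC and diamonds GM-MPP, 1 pair of arrays each. The 2 kinds of dendritic cell agree in sign for all 9 genes, positive for Trem2, Cd36 and Msr1, while the GM-MPP pair lies at 1.59 for Marco and near 0 for Mfge8 and Cd36.

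Cell type markers differed along the same split. All 10 dendritic cell markers were called lower on the number-2 dendritic cell arrays, from -0.68 ± 0.12 for Itgax, which encodes CD11c, to -2.61 ± 0.19 for Fscn1, an actin-bundling protein of mature dendritic cells. Of 14 macrophage and monocyte markers, 4 were called higher: Cd14, a coreceptor for bacterial lipopolysaccharide, by 4.85 ± 0.14, the Fc receptor Fcgr1 by 2.26 ± 0.25, and the complement genes C1qa by 1.39 ± 0.22 and C1qc by 1.23 ± 0.23. Mrc1, the mannose receptor, was lower, at -3.43 ± 0.13, and the other 9 did not pass. On the number-1 arrays of GM-TNFa-DC and GM-DC, C1qa lay under the array median, at 3.84 and 3.67. C1qc lay close to it there, at 4.83 and 4.76, so the size of both differences is not exact. The platelet chemokine Pf4, listed among erythroid and megakaryocyte markers, was higher by 5.24 ± 0.61 (adjusted p = 0.0107, limma). Of 9 neutrophil markers, 5 were called lower on number 2, among them the calcium-binding S100a9 (-2.88 ± 0.29) and the granule genes Ngp (-2.35 ± 0.31) and Ltf (-2.30 ± 0.49), and Prtn3, a granule protease, was higher (0.84 ± 0.14). Of 8 progenitor markers, Kit, the stem cell factor receptor, was lower (-3.29 ± 0.14), Gfi1, a transcription factor, was higher (1.41 ± 0.15) and the other 6 did not pass. Gfi1 lay under the array median on number 1, at 3.89 in GM-TNFa-DC and 3.68 in GM-DC. Among the remaining lists, the mast cell protease Cpa3 was lower (-1.08 ± 0.17), Pecam1 of the stromal and endothelial list was higher (1.74 ± 0.27) and none of 5 lymphoid markers passed. The part of cell composition in the split of the uptake genes was not tested.

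**Figure D5:**
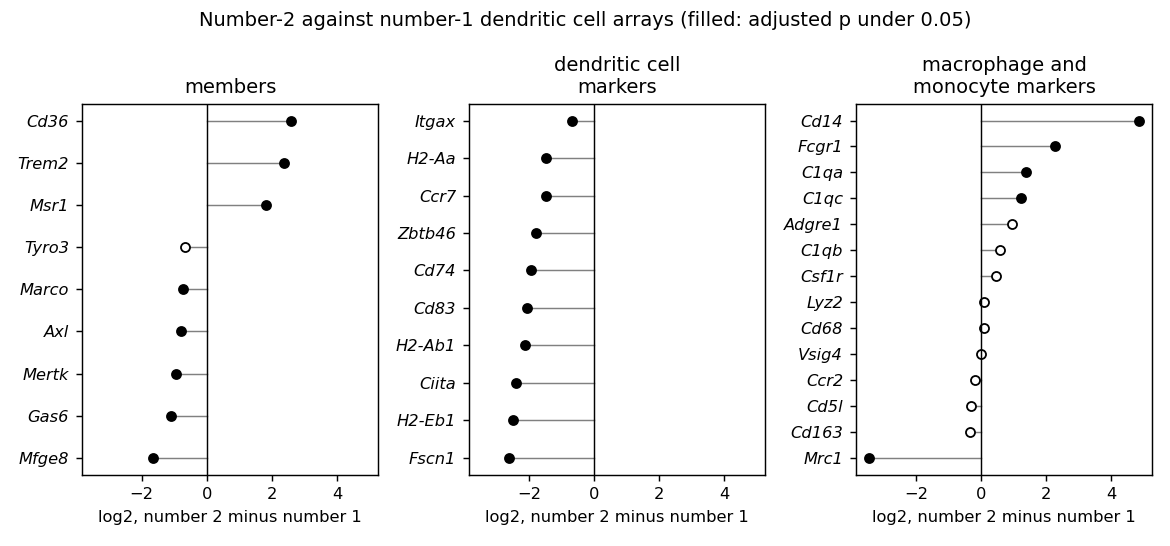
Number-2 minus number-1 dendritic cell arrays on the log2 scale, from the fit on 4 arrays, for the 9 members, 10 dendritic cell markers and 14 macrophage and monocyte markers; filled points passed at an adjusted p under 0.05. Cd36, Trem2 and Msr1 lie on the positive side, and all 10 dendritic cell markers lie on the negative side. Of the 14 macrophage and monocyte markers, 4 are filled on the positive side, 1 (Mrc1) is filled on the negative side and 9 are not filled.

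Of 23 other genes of phosphatidylserine recognition and bridging, 1 passed in GM-DC against GM-MPP: Lrp1, an endocytic receptor that also binds calreticulin on dying cells, rose by 2.54 ± 0.28 (adjusted p = 0.0139, limma). The list's median was 0.08. Lrp1 was also the only one called in GM-TNFa-DC against GM-MPP, at 2.63 ± 0.28. Timd4, a phosphatidylserine receptor of resident macrophages, lay at 2.74 to 3.02 on all 6 arrays, far under the median. Pros1, which encodes protein S, was at 7.07 and 4.96 in GM-TNFa-DC and 8.96 and 5.18 in GM-DC, against 4.63 and 5.06 in GM-MPP. It was thus high on the number-1 dendritic cell arrays alone, and the number difference of -2.95 ± 0.40 passed (adjusted p = 0.0159, limma). The integrin subunit gene Itgav, through which Mfge8 acts, had a change of 0.99 ± 0.53 in GM-DC that did not pass (adjusted p = 0.355, limma), and was higher on number 2 by 1.18 ± 0.13. Thbs1, thrombospondin, a ligand of Cd36, was at 13.05 and 12.79 on the number-2 dendritic cell arrays, against 5.78 and 6.62 on the number-1 arrays. It was also at 11.33 and 12.00 in GM-MPP, so it was low only on the number-1 dendritic cell arrays. By number, 7 of the 23 genes were called higher and 2 lower.

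Of 24 genes of the engulfment machinery, 1 was called in either comparison with GM-MPP. It was Abca1, a cholesterol exporter, which rose by 5.18 ± 0.91 in GM-DC (adjusted p = 0.0414, limma) and by 5.56 ± 0.91 in GM-TNFa-DC (adjusted p = 0.0286, limma), and the list's medians were 0.09 and 0.03. Abca1 was at 4.57 in GM-MPP 1, under the array median, and at 7.28 in GM-MPP 2, so its fold is not exact. Of 19 other scavenger receptors 3 rose in GM-DC. They were Cxcl16, a membrane-bound chemokine that binds oxidised lipoprotein (3.75 ± 0.31), Olr1, another receptor for oxidised lipoprotein (2.96 ± 0.40), and Cd68. In GM-TNFa-DC 3 rose, Cxcl16 by 4.95 ± 0.31, Olr1 by 3.98 ± 0.40 and Cd68 by 1.64 ± 0.18, while the macrophage genes Cd163 and Cd5l fell, at -2.39 ± 0.45 and -2.64 ± 0.52 (adjusted p = 0.0398 and 0.0444, limma).

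Of 11 measured genes of the Trem family and its adaptors, Trem3 was lower in GM-DC, at -4.19 ± 0.57 (adjusted p = 0.0242, limma), and none rose. In GM-TNFa-DC, Trem3 was at -4.32 ± 0.57 and the kinase Syk rose by 1.17 ± 0.18. By number 5 were called higher, among them Trem1 (3.16 ± 0.16), Treml2 (2.90 ± 0.14) and Apoe (2.08 ± 0.15), a lipoprotein that Trem2 binds, and Treml4 was lower (-1.92 ± 0.22). Of 8 genes for signals against uptake and their receptors, Sirpa, the receptor for Cd47, rose by 1.64 ± 0.27 in GM-DC and by 1.50 ± 0.27 in GM-TNFa-DC, and Cd24a fell in GM-TNFa-DC, at -0.94 ± 0.17.

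Of 17 regulators and proteases of the members, Mitf, a transcription factor of lysosome genes, rose in GM-DC by 1.72 ± 0.26. In GM-TNFa-DC 5 rose, among them Mitf, Socs1 (2.04 ± 0.34) and Socs3 (1.98 ± 0.39), feedback inhibitors of cytokine signalling, and Adam17 (1.43 ± 0.21), a protease that sheds the Mertk and Axl ectodomains. Cited2 was lower, at -2.42 ± 0.34. Adam17 had 0.81 ± 0.21 in GM-DC, which did not pass (adjusted p = 0.104, limma), and the difference between GM-TNFa-DC and GM-DC did not pass (0.62 ± 0.21, adjusted p = 1, limma). Pparg and Nr1h3, nuclear receptors that in mouse macrophages induce Cd36 and Mertk, did not pass in GM-DC, at 0.88 ± 0.86 and 0.85 ± 0.36 (adjusted p = 0.614 and 0.246, limma).

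Of the 9, 6 members had group means that spanned at least 2 on the log2 scale, and for each the genes with the most similar profile over the 6 arrays were found, by the root mean square difference of the centred log2 values. Those 6 arrays form 3 groups and share the number split, so the likeness is a description. Nearest to Axl were Egr2 (0.23), Il7r (0.30) and Atp6v0d2 (0.32). Mfge8 was nearest to Rnf180 (0.26), St6gal1 (0.29) and Rasgrp1 (0.29), and Marco to Ypel2 (0.25), H2-Ob (0.28) and Dapk1 (0.31). Trem2 was nearest to Fcgr1 (0.25), Pon3 (0.39) and Msr1 (0.45), and Msr1 to Lgals3bp (0.26), Pon3 (0.29) and Blnk (0.32). Cd36 had no equally close profile, with Procr at 0.43, Plpp3 at 0.60 and Ccl5 at 0.61. Among all 9 members, whatever their span, the closest pairs were Mertk with Tyro3 (0.39) and Trem2 with Msr1 (0.45), and the farthest was Cd36 with Gas6 (3.54). Mertk and Tyro3 spanned only 1.30 and 0.52, and genes that change little lie close together by this measure.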

How the data were processed

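The deposited table holds log2 values of 45101 probe sets on 6 arrays. Column-purified RNA went through one-cycle labelling, per the labels' protocols. The authors made the values with RMA in Bioconductor, according to the submitters' processing notes and the labels; RMA corrects background, quantile-normalizes and summarises probes, so overall brightness differences between arrays are removed and dim genes are compressed. The log2 scale was inferred from the range of 1.89 to 14.43. No detection calls were used.

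Probe sets were named through the platform annotation, with symbols updated by Entrez identifier to RefSeq GRCm38.p6. Of them 34945 had 1 symbol, 932 several and 9160 none listed, and 64 were controls. Each of 18193 genes was represented by its brightest single-symbol probe set. Groups were compared with limma 3.58.1 in R 4.3.3 (eBayes with an intensity trend, 3 residual degrees of freedom and 1 spread for all groups), and p-values were adjusted over all genes by Benjamini-Hochberg. Errors after ± are moderated standard errors. The functions were tested on simulated data. Python 3.11.15 prepared tables and matplotlib 3.10.9 drew plots.

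The members and lists were chosen with earlier results of these data known. Named were the 9 members, called list members (at most 6 a list and group comparison), 8 further genes and the 3 nearest profiles of each member spanning at least 2; genes named for the number split alone were chosen after their values were seen. List genes without a single-symbol probe set were not analysed here. Alternatives tried were median centring, quantile normalization once more, no dim genes, the mean of probe sets, all probe sets, 2 other priors, 4 arrays, a block, each array left out and a 2-fold minimum. The block on 4 arrays was added after seeing the data.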

Additional observations from a re-analysis of the deposited data

Results flagged for a closer look

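On its main probe set, Gas6 stood on opposite sides of GM-MPP on the 2 array numbers. On number 2 it was lower in both dendritic cell groups than in GM-MPP, at -1.52 in GM-TNFa-DC and -1.12 in GM-DC, whereas on number 1 it was higher, at 0.33 in GM-TNFa-DC and 0.93 in GM-DC. Averaged over both groups the change was -1.32 on number 2 and 0.63 on number 1, a difference of -1.95. Of this, the GM-MPP pair made up 0.84, since its number-2 array was the higher one. The difference was not tested, since each number has 1 GM-MPP array, which both dendritic cell groups share.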

How the results depend on the processing

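Same-numbered arrays deviated together between GM-TNFa-DC and GM-DC (r = 0.806 across 18193 genes, which are not independent), but hardly with GM-MPP (0.0719 and 0.105), so the number was not taken to pair all 3 groups, although the dendritic cell arrays of a number were alike. With the number as a replicate block, 5 members rose in GM-DC against GM-MPP, where Trem2 (adjusted p = 0.0407, limma) and Msr1 (0.0119) were added and Marco was lost (0.0524). Of all 18193 genes, 1476 were called higher or lower there with the block, against 819 without it. In GM-TNFa-DC against GM-MPP 5 rose, with Msr1 added (0.0102), and 2060 of all genes were called with the block, against 1279 without it. In GM-TNFa-DC against GM-DC 0 passed. A block on only the 4 dendritic cell arrays also called 0 (lowest adjusted p of all genes 0.157), but had 1474 genes at an unadjusted p under 0.05, with Gas6 (adjusted p = 0.594, limma) and Trem2 (adjusted p = 0.602) among them, and narrower 95% intervals: -1.44 to -0.12 for Trem2, -0.89 to -0.11 for Gas6 and -0.21 to 0.46 for Cd36. These intervals are of the main probe sets alone.

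A second quantile normalization, median centring and leaving out dim genes changed no call of a member in any comparison. In GM-DC against GM-MPP, 2 members were called with probe sets averaged per gene, 2 with all probe sets tested and 1 with a robust prior, against 4. By array number, 3 were lower with the mean of probe sets and 2 with a 2-fold minimum, against 5, and 0 were higher and 0 lower with all 6 arrays, where Marco turned to 0.0516. The mean of probe sets lost the number calls of Axl (adjusted p = 0.222, limma), Gas6 (0.0784) and Marco (0.0759) and gained that of Tyro3 (0.00672). With the mean of probe sets, Gas6 in GM-DC against GM-MPP turned to 0.0444 and Marco in GM-TNFa-DC against GM-DC to -0.0371. Of 522 single values under all alternatives, 439 kept direction and side of the threshold, 57 lost it, 4 gained it and 22 changed sign, none of which were calls but Marco by number.

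Leaving out 1 array at a time gave 0 to 3 members called higher in GM-DC and 0 to 3 in GM-TNFa-DC against GM-MPP. Gas6 in GM-DC then ranged from -0.70 to 0.51. In GM-TNFa-DC against GM-DC the ranges were -0.87 to 0.13 for Axl, -0.86 to 0.17 for Mertk, -0.51 to 0.35 for Tyro3, -1.10 to 0.10 for Gas6, -0.77 to 0.89 for Mfge8, -2.20 to 0.64 for Trem2, -1.20 to 1.45 for Cd36, -1.06 to 0.78 for Msr1 and -0.37 to 0.44 for Marco. Of all genes, 819 were called in GM-DC against GM-MPP, 1476 with the block and 50 to 717 without 1 array, and 1279 in GM-TNFa-DC against GM-MPP, 2060 with the block and 91 to 760 without 1 array. By number 2150 were called, 1244 with a 2-fold minimum and 0 with all 6 arrays, and no array could be left out, since no residual degree of freedom would remain. The lone array of a group was assumed to vary like the others. The cause was not tested for any of these changes.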
